A study of Mus musculus with 15 samples.

Results

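Nucleosome shifts outside genes were the rows of the authors' deposited shift tables that carried no gene symbol and did not lie on chromosome 1. There were 1154 such rows, at 1143 distinct positions, of 1635 shifts outside chromosome 1 and 5115 shifts in all. The table of susceptible against control mice held 404 of them, resilient against control 387 and resilient against susceptible 363. Every one of these rows also bore a class that names no part of a gene, and every row with such a class lacked a gene symbol, so both definitions picked the same positions. With chromosome 1 included, the tables held 3942, 612 and 561 shifts of any kind in the same order, and without it 579, 545 and 511. Why chromosome 1 weighs so heavily in susceptible against control was not tested.

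All libraries came from the nucleus accumbens, part of the brain's reward circuit, of C57BL/6 mice (written C57BL/6J in the protocol). Susceptible and resilient mice had met aggressive CD1 mice on 10 days of social defeat, 10 minutes per defeat, and were parted by a social interaction test. Control mice were set beside them, and no days, minutes or hours of defeat are recorded for them. In the defeated groups the region was punched out 48 hours past the final defeat session. Each replicate pooled the punches of 10 mice. Chromatin was digested with micrococcal nuclease and immunoprecipitated for histone H3 in 1 experiment, and sheared and immunoprecipitated for ACF1 in another. The labels speak once of biological triplicates and once of sequencing replicates, but each group or pair of groups had 1 deposited result, so no value here has a spread between replicates and no test between groups was made. Pooled tissue mixes many cell types, and a summit that moved in a few cells cannot be told apart from a small move in all of them. Depth is unknown. The 95% intervals given here are Wilson intervals, cover counting error only, and treat neighbouring positions as independent.

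A nucleosome is a stretch of DNA wrapped around a core of histones. Micrococcal nuclease cuts the linker DNA between cores, so the H3-bound fragments pile up where cores sit, and the summit of a pile marks a preferred place. Remodelling complexes of the ISWI family, among them ACF with its subunits ACF1 and SNF2H, slide cores along the DNA and space them evenly. Between genes, such arrays cover most of the chromosome, and near centromeres they pack satellite repeats into heterochromatin.

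The coordinates themselves showed which group a listed position belongs to. The authors' occupancy tables give positions at which H3 was marked Up or Down for the same pairs of groups. Of the 404 shifts of susceptible against control, 40 lay exactly on an occupancy position of resilient against control and 0 on one of resilient against susceptible. Moved by the listed shift, with its sign, 37 of the 404 fell exactly on an occupancy position of resilient against susceptible and 0 on one of resilient against control. The first of these table pairs has only the control group in common, and the second only the susceptible group. The listed position was therefore read as the summit in the second-named group, and the position plus the shift as the summit in the first-named group.

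The other tables followed the same pattern. Of the 387 shifts of resilient against control, 37 sat on an occupancy position of susceptible against control as listed, and 24 on one of resilient against susceptible after the shift was added. Of the 363 shifts of resilient against susceptible, 32 sat on an occupancy position of susceptible against control as listed, and 21 on one of resilient against control after the shift was added. Subtracting the shift in place of adding it gave 0 matches in every one of these table pairs.

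**Figure D1:**
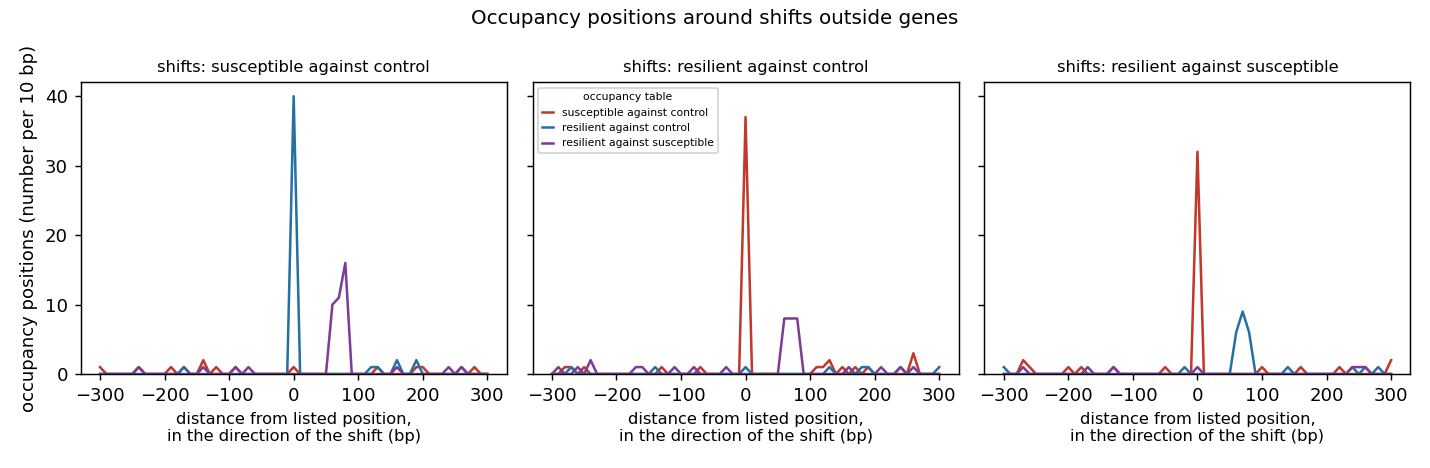
Number of occupancy positions per 10 bp (y axis) at each distance from the listed shift position, turned so that the shift points right (x axis, bp), for the shifts outside genes of each table; the lines stand for the 3 occupancy tables. Each panel has 1 peak at 0 bp (40, 37 and 32 positions) from a table that shares the second-named group, and 1 broader peak at 60 to 80 bp from the table that shares the first-named group.

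These matches also carried a direction. In all 191 of them, the occupancy table marked H3 in the direction of the group whose summit it was, with Up read as higher in the first-named group. All 40 control summits and all 37 susceptible summits of the first table were Down against the absent group, that is, higher in control than in resilient mice and higher in susceptible than in resilient mice. The 32 susceptible summits of resilient against susceptible were all Up in susceptible against control, and its 21 resilient summits were all Up in resilient against control. The tables matched here share a library in every case, so the matches say what the columns mean and are not repeated evidence of a change.

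Few shifts had an occupancy position of the same pair close by. In the order of the tables, there were 16617, 16132 and 14963 occupancy positions outside chromosome 1, over 2458 Mb. The share of the genome near them was not computed, so the counts below were not set against a background. A small count here is therefore no sign of avoidance. Within 200 bp of the shift, an occupancy position of the same pair was listed for 9 of 404 shifts in susceptible against control (2.23%, interval 1.18 to 4.18), for 4 of 387 in resilient against control and for 3 of 363 in resilient against susceptible. Within 1000 bp the counts were 34, 22 and 29 (8.42%, 5.68% and 7.99%). Of those within 200 bp, 5 of 9, 0 of 4 and 2 of 3 were Up. On the very same position there was 1 in each table, and all were in the pericentromere of chromosome Y. At 2858832, the shift was 60 bp both in susceptible against control and in resilient against control. Occupancy was Down in both, hence highest in controls at that position. As the position is read as the control summit of both shifts, these marks cannot be told apart from the shifts themselves. At 2853702, the shift was 70 bp in resilient against susceptible and occupancy was Up. For shifts with a gene symbol outside chromosome 1, the counts within 200 bp were 6 of 175, 4 of 158 and 3 of 148. Whether the authors kept shifts and occupancy changes apart when they made the lists is not given in the sources used here.

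Sizes were held in a narrow band. All but 2 shifts outside genes were 60, 70 or 80 bp long, with a median of 70 bp in every table. The exceptions were 85 bp at 67550562 of chromosome 15 in susceptible against control, 341906 bp from 1700012I11Rik, and -55 bp at 49011662 of chromosome 3 in resilient against susceptible, in a gene desert. Susceptible against control had 120 shifts of 60 bp, 140 of 70 bp and 143 of 80 bp in either direction. Resilient against control had 132, 134 and 121, and resilient against susceptible 107, 125 and 130. The 3 sizes thus had similar counts in each table. The tables hold positions the authors selected, by thresholds not given in the sources used here. Among shifts with a gene symbol the median was 70 bp as well, with sizes from 60 to 80 bp.

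Neither direction along the chromosome prevailed. Positive shifts, toward higher coordinates in the first-named group, numbered 209 against 195 negative ones in susceptible against control (51.7% positive, interval 46.9 to 56.6). They numbered 197 against 190 in resilient against control (50.9%, 45.9 to 55.9) and 187 against 176 in resilient against susceptible (51.5%, 46.4 to 56.6). All 3 intervals include an even split. Among shifts with a gene symbol the shares were 58.9% (51.5 to 65.9), 53.2% (45.4 to 60.8) and 54.7% (46.7 to 62.5). The intervals inside and outside genes overlap in every pair, and the difference was not tested. The sign did not keep to one side at every size: at 80 bp, susceptible against control had 85 positive and 58 negative shifts, whereas resilient against control had 55 and 66.

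**Figure D2:**
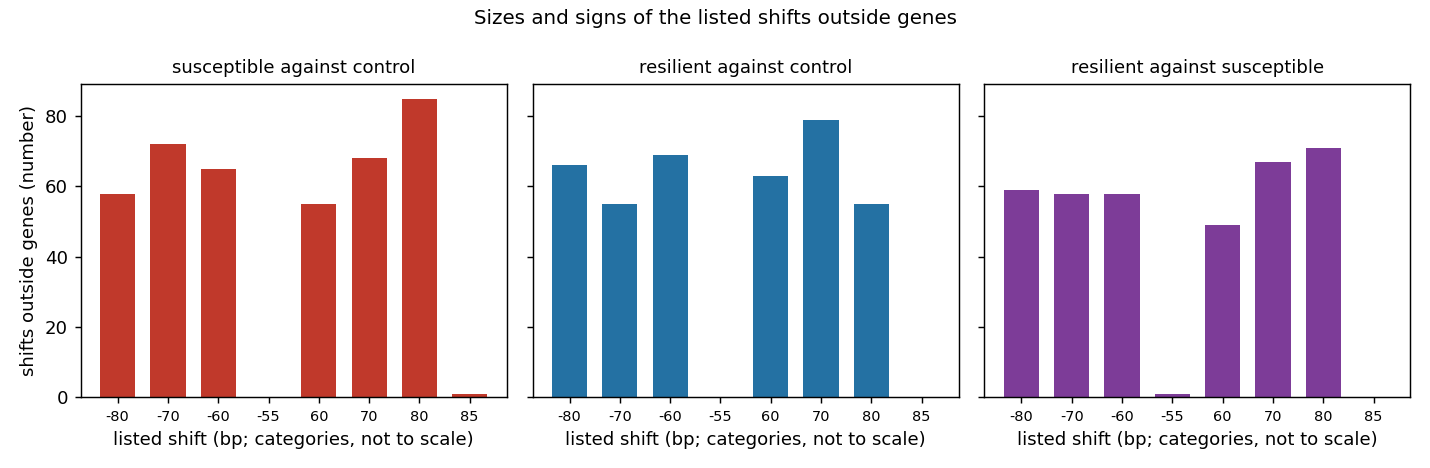
Number of shifts outside genes (y axis) at each listed size and sign (x axis, bp, drawn as categories) in the 3 tables. The bars at 60, 70 and 80 bp in either direction hold all but 2 members, and positive shifts make up 51.7%, 50.9% and 51.5%.

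Shifts fell outside genes slightly more often than occupancy positions did. Outside chromosome 1, 69.8% of shifts in susceptible against control had no gene symbol (65.9 to 73.4), against 66.5% of occupancy positions (65.8 to 67.2). The shares were 71.0% and 66.2% in resilient against control, and 71.0% and 67.6% in resilient against susceptible. In the table of resilient against control the shift interval, 67.1 to 74.7, lay just above the occupancy interval, 65.5 to 66.9. The intervals of the other tables overlapped, and no test was made.

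Most members were in ordinary intergenic DNA. The class OtherIntergenic held 291 of 404 shifts in susceptible against control, 278 of 387 in resilient against control and 268 of 363 in resilient against susceptible, that is, 72.0%, 71.8% and 73.8%. Gene deserts, long stretches with no gene, held 88, 83 and 75 shifts (21.8%, 21.4% and 20.7%). Occupancy positions without a gene lay in deserts somewhat more often, at 25.1%, 26.4% and 27.4%. In deserts, 49 of 88, 41 of 83 and 40 of 75 shifts were positive.

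The pericentromere took a larger share of the shifts than of the occupancy positions. It held 25 shifts in susceptible against control, 6.19% of the shifts outside genes (interval 4.23 to 8.98), against 0.869% of the occupancy positions without a gene. In resilient against control it held 26 shifts, 6.72% (4.63 to 9.66), against 0.871%, and in resilient against susceptible 20 shifts, 5.51% (3.59 to 8.36), against 0.841%. The 71 pericentromeric shifts lay on 11 chromosomes, 33 of them on chromosome Y between 2780472 and 2899852. Next came chromosome 9 with 9 between 3004662 and 3087652, and chromosomes 3 and 18 with 6 each. Positive shifts made up 9 of 25, 13 of 26 and 12 of 20. The intervals of these shares, 20.2 to 55.5, 32.1 to 67.9 and 38.7 to 78.1, are wide and include an even split. How reads that match several places were treated is not given in the sources used here, and its part in these shares was not tested.

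Along the genome, chromosomes Y and X lay at opposite ends. Over all 3 tables, chromosome Y held 2.39 shifts outside genes per Mb, against 0.47 over all chromosomes but 1, and chromosome X held 0.144 per Mb. Among autosomes, chromosome 7 had the most, 0.898 per Mb with 48, 41 and 48 shifts in the 3 tables, then chromosome 4 with 0.649, and chromosome 10 the fewest, 0.308. Occupancy positions without a gene varied less among autosomes, between 11.4 per Mb on chromosome 19 and 16.8 on chromosome 7, and were sparse on chromosome X, at 1.04. For every 100 such occupancy positions there were 37.3 shifts on chromosome Y, 13.9 on X and 5.34 on chromosome 7, against 3.62 overall.

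**Figure D3:**
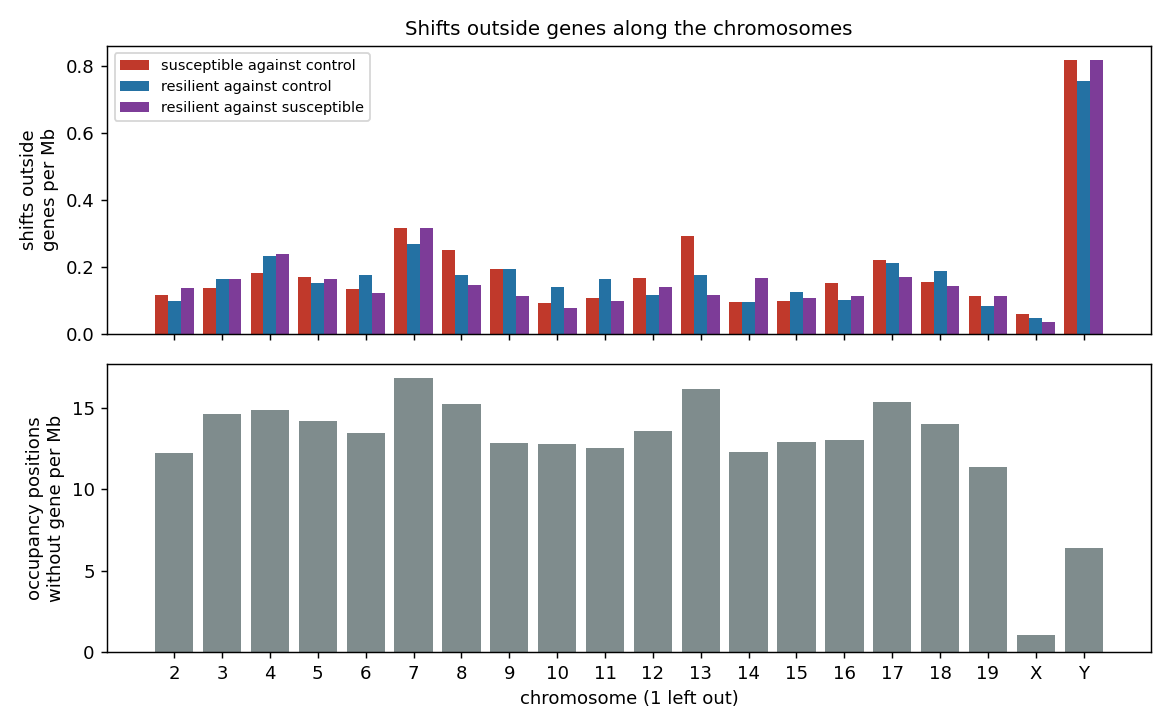
Shifts outside genes per Mb of each chromosome in the 3 tables (top) and occupancy positions without a gene symbol per Mb, all tables together (bottom); chromosome 1 is left out. Chromosome Y stands highest for shifts in every table, whereas its occupancy positions, 6.41 per Mb, are fewer than those of any autosome.

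Members were scattered as a rule and piled up at a few loci. Of the windows of 1 Mb that held a member, 713 in all, 505 held just 1. The 30 windows with at least 5 members held 240 of the 1154. Runs of members with gaps of at most 10000 bp, pooled over the tables, gathered 195 members (16.9%, 14.8 to 19.2) into 61 clusters, of which 39 were pairs and 13 had 4 or more members. Of the pairs, 4 were 1 position listed in 2 tables, and 10, these included, were a single summit shared by 2 tables, as described below for the joined loci. By class, 59 of 71 pericentromeric shifts lay in a cluster (83.1%), against 115 of 837 in ordinary intergenic DNA (13.7%) and 21 of 246 in deserts (8.54%). Of the 71, 33 lay on chromosome Y between 2780472 and 2899852, so clustering there cannot be told apart from the short reach of the class. No clustered share was computed for shifts with a gene symbol or for occupancy positions. Within single tables, 44 of 404, 36 of 387 and 36 of 363 members were clustered. These counts were 19, 11 and 16 with gaps up to 1000 bp, 81, 77 and 66 with gaps up to 100000 bp, and 27, 17 and 17 without chromosome Y and the pericentromere, a choice made after seeing the data.

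The fullest cluster was on chromosome Y from 2853702 to 2899852, with 24 members at 21 positions over 46.2 kb. It held 8 shifts of susceptible against control, 2 of them positive, 9 of resilient against control, 5 positive, and 7 of resilient against susceptible, 4 positive. The next, also on chromosome Y, ran from 2780472 to 2796622 with 9 members, 4 of them positive. Neighbours in these runs often pointed opposite ways: at 2886122 and 2886342, 220 bp apart, resilient against control listed -60 and 60 bp. Over all clusters, neighbouring members of the same table had the same sign in 32 of 70 pairs, with 17 of 26 in susceptible against control, 7 of 23 in resilient against control and 8 of 21 in resilient against susceptible.

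After these, 4 clusters tied with 6 members each, at 5 positions on chromosomes 8 and 9 and at 6 on chromosomes X and 18. On chromosome X, the cluster from 166438592 to 166446642 began 9863 bp from Mid1, the gene of a ubiquitin ligase found on microtubules. Its first 2 members were 60 bp each in resilient against control, its members of susceptible against control were -80 and -70 bp, and those of resilient against susceptible 60 and -70 bp. On chromosome 8, the cluster from 19925232 to 19931812 lay 1429 to 8009 bp from Gm15319, a predicted gene. All 3 of its shifts in susceptible against control were positive, 60, 80 and 70 bp, as was its 1 shift in resilient against control, 80 bp. Both shifts of 80 bp are at 1 position, 19930402, with the control summit in common. Resilient against susceptible listed 70 bp at 19929052 and -80 bp at 19931682 there. The remaining ones were pericentromeric, on chromosome 9 from 3026822 to 3036062 and on chromosome 18 from 3000502 to 3010402. Those on chromosomes 9 and 18 had 2 and 3 positive members of 6.

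**Figure D4:**
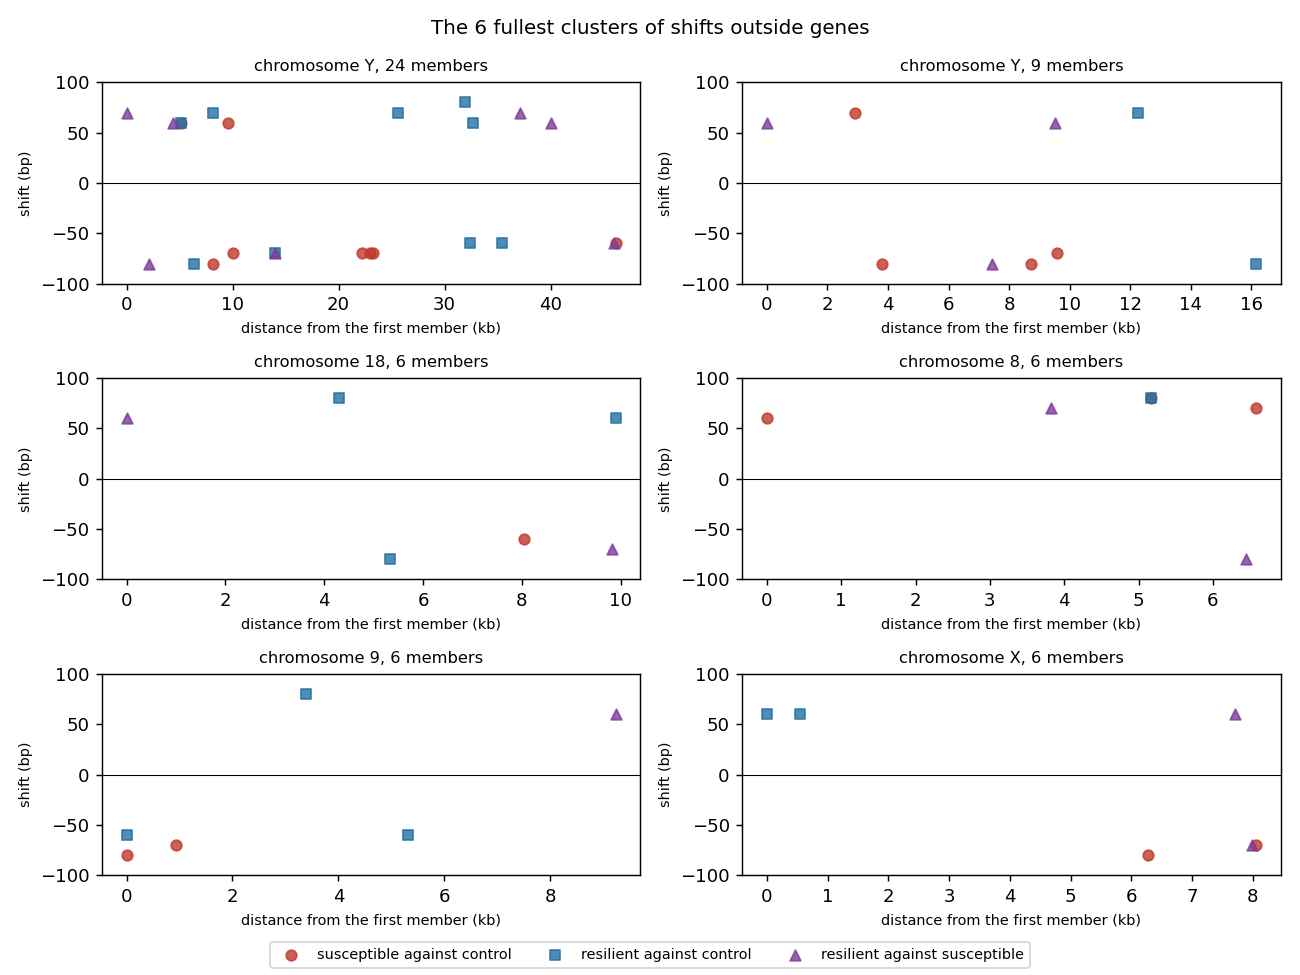
Listed shift in bp (y axis) against the distance from the first member in kb (x axis) in the 6 clusters with the most members; each point is 1 shift, coloured and shaped by table. Positive and negative shifts stand side by side in every cluster, with 11 of 24 positive in the fullest.

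Some summits could be followed through 2 tables. Joining the shift tables on the summit of the group they share gave 19 loci, 9 on a control summit, 5 on a susceptible one and 5 on a resilient one. As each join uses the shared library on both sides, the 2 values of a locus are not independent. Listed sizes of 60 to 80 bp also leave the distance between the other groups only near 0 or near the sum of both shifts, so the values are given as a description. Of the 19 loci, 11 were at a position listed in 2 tables, and the other 8 were picked out after their values were seen.

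Loci with a shared control summit give both defeated groups against the same controls. At 19930402 of chromosome 8, the shift was 80 bp in susceptible against control and 80 bp in resilient against control. At 24678132 of chromosome 9, 99385 bp from Tbx20, a T-box transcription factor gene of the heart, both were 80 bp as well. At 116521942 of chromosome 6, 10087 bp from the olfactory receptor gene Olfr215, they were -80 and -70 bp. The others of this kind were pericentromeric, with 60 and 60 bp at 3011222 of chromosome 4, -80 and -70 bp at 3004662 of chromosome 9, -80 and -60 bp at 3026822 of chromosome 9, -70 and -60 bp at 3000582 of chromosome 11, and 60 and 60 bp at 2858832 of chromosome Y. At 2861812 of chromosome Y, susceptible mice had -80 bp and resilient mice 70 bp, which places their summits 150 bp apart.

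At 5 loci the resilient summit was shared. The shift was 70 bp against both groups at 76461572 of chromosome 10, 34384 bp from the folate carrier gene Slc19a1, and -70 bp against both at 2867752 of chromosome Y. It was 80 bp against control and 70 bp against susceptible at 106127562 of chromosome 2. At 145705492 of chromosome 4 the values were 60 and 70 bp, and at 74238112 of chromosome 6, in a desert, -60 and -70 bp.

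A shared susceptible summit was found at 5 loci. At 90693032 of chromosome 3 the susceptible summit was -70 bp from the control one and the resilient summit 70 bp from the susceptible one, so that control and resilient summits coincided. The same held with 70 and -70 bp at 58304792 of chromosome 12, and within 10 bp with -70 and 60 bp at 2790062 of chromosome Y. At 17808752 of chromosome 7 the steps were 80 and 70 bp in the same direction, 150 bp in sum. At 166446642 of chromosome X, in the cluster beside Mid1, they were -70 and -70 bp, a sum of -140 bp. Sums of this size exceed the listed band, and no such shift of resilient against control was listed.

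A pair of the 404 members of susceptible against control, picked out after their values were seen, had both summits among the occupancy positions, against 0 of 387 in resilient against control and 0 of 363 in resilient against susceptible. At 20128122 of chromosome 17, 38266 bp from the vomeronasal receptor gene Vmn2r104, susceptible against control listed -80 bp. The control summit there was Down in resilient against control, and the susceptible summit, at 20128042, was Down in resilient against susceptible. The other was 166444862 of chromosome X, in the cluster beside Mid1, with the same shift of -80 bp and Down at both summits. Every match of this table was Down, so that mark adds nothing for these members.

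ACF1 segments lay close to many members. Each ACF1 file divides the genome into 2 states, and the rarer one, E2, is called a segment here, although the files leave unsaid which of E1 and E2 marks binding of ACF1. Outside chromosome 1 the susceptible list had 1047 segments, the resilient list 666 and the control list 688. Of the 404 shifts of susceptible against control, 63 lay within 1000 bp of a susceptible segment (15.6%, 12.4 to 19.5), 50 of a resilient one (12.4%, 9.52 to 15.9) and 53 of a control one (13.1%, 10.2 to 16.8). The stretches within 1000 bp of these segments make up 0.236%, 0.156% and 0.146% of the genome outside chromosome 1. Resilient against control had 63, 44 and 47 of 387 members near the 3 lists, or 16.3%, 11.4% and 12.1%. Resilient against susceptible had 47, 38 and 40 of 363, or 12.9%, 10.5% and 11.0%.

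Occupancy positions without a gene were near segments far less often. Over the 3 tables together, 15.0% of the shifts outside genes (13.0 to 17.2) were within 1000 bp of a susceptible segment, against 1.60% of the occupancy positions without a gene (1.47 to 1.75). For resilient segments the shares were 11.4% and 1.11%, and for control segments 12.1% and 1.12%. Shifts with a gene symbol were near segments at higher shares, 22.5% for susceptible (19.0 to 26.4), 17.9% for resilient and 19.8% for control segments, so nearness was not a mark of shifts outside genes alone. These shares were not tested, because positions cluster and each list stands for 1 result. They were also not matched by class, and the pericentromere held a larger share of the shifts than of the occupancy positions.

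**Figure D5:**
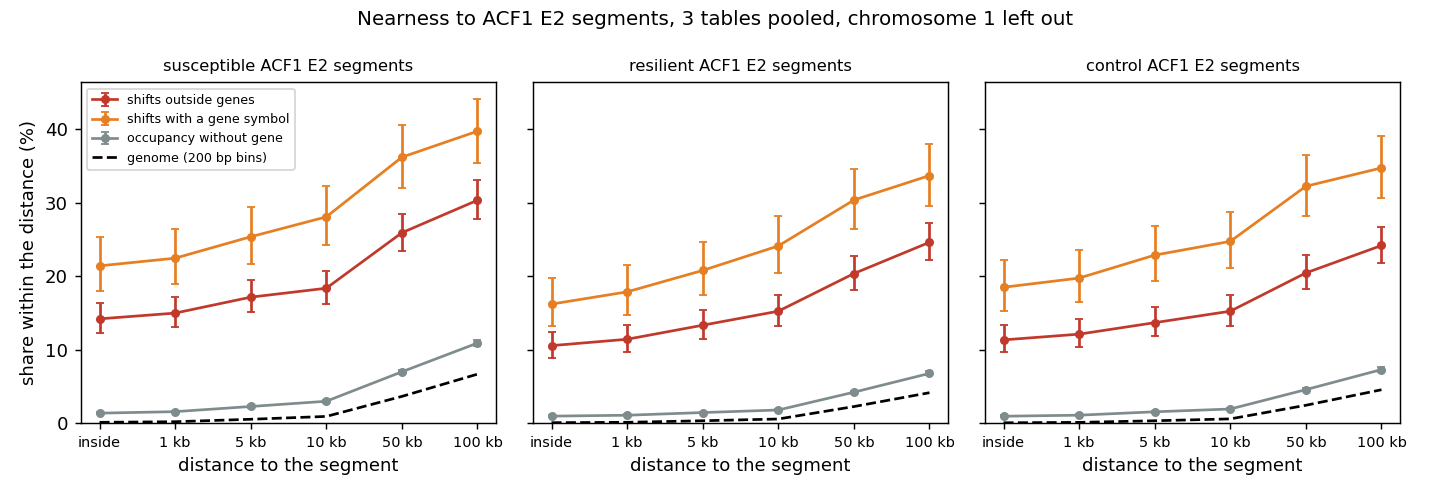
Share of positions inside or within a distance (x axis) of an ACF1 E2 segment (y axis, percent) for each segment list, with the 3 tables pooled; points carry 95% Wilson intervals and the dashed line is the share of 200 bp bins of the genome. Shifts outside genes start at 14.2%, 10.6% and 11.4% inside segments, below shifts with a gene symbol and above occupancy positions without a gene.

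In all, 189 members were within 1000 bp of a segment of some list (16.4%, 14.4 to 18.6), and 176 of them lay inside one. Near segments of every list were 114 of the 189, and 47 were near segments of a single list, 35 of these of the susceptible list, 5 of the resilient and 7 of the control list. The susceptible list also has the most segments. Of the 189, 89 were positive and 100 negative, with a median size of 70 bp, as over all members. By class, 62 of 71 pericentromeric shifts were near a segment (87.3%, 77.6 to 93.2), against 111 of 837 in ordinary intergenic DNA (13.3%) and 16 of 246 in deserts (6.50%). All 38 members on chromosome Y and 22 of 24 on chromosome X were near one, and 28 of 75 on chromosome 8, but 0 of 19 on chromosome 19. With chromosome Y and the pericentromere left out, a choice made after seeing the data, 122 of 1078 members remained near a segment (11.3%, 9.56 to 13.3). Shares by class, by chromosome or without these regions were not computed for occupancy positions. A trait of these regions therefore cannot be told apart from one of the shifts.

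The first members inside segments, in the order of the chromosomes, fell at a handful of loci. On chromosome 2, 5 members from 27352182 to 27357552 lay inside segments of all 3 lists, 21264 to 26634 bp from Brd3, which encodes a bromodomain protein that binds acetylated histones. Susceptible against control listed 60 bp at 27352182 and 80 bp at 27352402, and resilient against susceptible 80 bp at 27352782, -60 bp at 27357342 and -80 bp at 27357552. Also in all 3 lists, and in a desert of chromosome 2, susceptible against control listed -80 bp at 98502782, and resilient against susceptible -70 bp at 98502942 and -60 bp at 98503122. These 3 negative shifts lay within 340 bp.

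Further along, resilient against susceptible listed 80 bp at 181666382 of chromosome 2, and -60 and -70 bp at 3187662 and 3188142 of chromosome 3, again inside segments of every list. On chromosome 4, shifts at 3007332, 3010922 and 3011222 lay inside susceptible segments but 4979 bp or more from any resilient one. The last 2 of them also lay inside control segments, and the first was 269 bp from one. Their values were 70 bp in resilient against susceptible and -60 bp in resilient against control at the first 2 positions. At 118221322 of chromosome 4, 5833 bp from Wdr65, -60 bp was listed in susceptible against control inside segments of all lists. Members at 3160082, 3179622 and 121707672 of the same chromosome lay inside a susceptible segment only, and the nearest segment of another list was 10872 bp away or farther. The last of the first 20, at 145429812 of chromosome 4, was -60 bp in resilient against susceptible, inside susceptible and resilient segments and 5412 bp from a control one.

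The fullest clusters and the segments coincided. All 24 and all 9 members of the chromosome Y clusters lay inside segments of each list, as did all 6 at chromosome 8, at chromosome 9 and beside Mid1. On chromosome 18, 6 of 6 lay inside susceptible and resilient segments and 5 inside control ones. A smaller cluster of 5 members on chromosome 8 from 74369202, which began 119622 bp from the endocytosis gene Fcho1, lay inside segments of the susceptible list alone. Its 5 shifts were all 70 bp long, 4 of them positive, and 4 were from resilient against control. This one was picked out after its values were seen. Other clusters of 5 members varied. From 46524572 of chromosome 7, 4 members lay inside susceptible segments and 0 inside resilient or control ones. From 3007172 of chromosome 4, 4 lay inside susceptible, 0 inside resilient and 3 inside control segments. From 27352182 of chromosome 2 and 19967942 of chromosome 8, all 5 lay inside segments of each list.

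The rule kept only positions without a gene symbol, so some distance from named genes was set in advance. Measured to the gene bounds that the authors' H3 tables themselves give, which leave out genes with no listed position, the median distance was 116 kb, with 69.1 kb in ordinary intergenic DNA, 439 kb in deserts and 430 kb in the pericentromere. Of the 1154 members, 102 lay within 10 kb of such a gene (8.84%, 7.33 to 10.6). No such share was computed for occupancy positions without a gene. By table the shares were 10.4% (7.78 to 13.8) in susceptible against control, 8.79% in resilient against control and 7.16% (4.93 to 10.3) in resilient against susceptible. The gene that was nearest to the most members was Gm21677 on chromosome Y, for all 38 there, but at 381616 bp or more. Next came 4930433N12Rik and Prl2c4, of the placental prolactin family, with 10 each, and Gm4224 and Mid1 with 9 each. Gm21276, the nuclear receptor gene Hnf4g, the kinase gene Lyn and the vomeronasal receptor gene Vmn2r121 had 8 each.

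Members were also counted near 3 short lists of neuronal genes, which leave out many others. Of all 7814 genes with bounds in the tables, 789 were the nearest gene of a member (10.1%). This share was not matched to the lists for gene length or for the length of gene-free DNA around each gene. Of the synaptic adhesion and axon guidance list, 17 of 20 genes had bounds in the tables, and 5 were the nearest gene of 11 members. Of these 11, 9 were positive, beside 593 of all 1154 members (51.4%). The 3 tables are pooled in this count, the sign follows the chromosome rather than the gene's strand, and no test was made. The lists were chosen with earlier results of these data known, and 4 of the 9 lay nearest to Cntn5. Cntn5, a contactin that joins neurons, had 6, with 70, 60 and 80 bp in susceptible against control, -60 and 80 bp in resilient against control and -80 bp in resilient against susceptible, at 70478 to 830356 bp. Resilient against control also listed 60 and 60 bp nearest to the presynaptic neurexin gene Nrxn3, 70 bp nearest to the Slit receptor gene Robo2 and 80 bp nearest to the netrin receptor gene Dcc. Of the medium spiny neuron list, which marks the main cell type of this region, 6 of 16 genes had bounds and 1, the transcription factor gene Ebf1, was nearest to 1 member, -70 bp in resilient against control. Of 27 glutamate and GABA receptor genes with bounds, Gria2 and Gabrg1 were nearest to 1 member each, both -70 bp. All distances in these lists were 54248 bp or more, and no expression was measured here.

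The largest shifts were many. In resilient against control 121 members shared the top size of 80 bp, and in resilient against susceptible 130. The first 5 of each in chromosome order were all on chromosome 2. In resilient against control they were -80 bp at 10884772, -80 bp at 85742582, 80 bp at 88443752, 80 bp at 106127562 and -80 bp at 151040902. Of these, 85742582 and 88443752 lay nearest to the olfactory receptor genes Olfr1016 and Olfr1193, at 102157 and 74261 bp, and 106127562 is one of the loci above with a shared resilient summit. In resilient against susceptible they were 80 bp at 3510462, -80 bp at 9587992, -80 bp at 17061962, 80 bp at 19598562 and 80 bp at 27352782. Of these, 9587992 lay in a desert 190712 bp from Gata3, a transcription factor gene, and 27352782 is inside the segments near Brd3.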

How the data were processed

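Per the labels, H3 chromatin was digested with micrococcal nuclease, ACF1 chromatin was sheared, libraries had 15 (H3) or 19 (ACF1) PCR cycles, and reads were 100 bp long. The submitters' processing notes name CASAVA 1.8.2 and build mm9. The aligner, callers and thresholds, and whether replicates were pooled, are not stated in the sources. Of the 15 samples, 6 had files. The deposited H3 tables give shifts in bp or Up and Down marks, with no count or p-value, and the ACF1 files give state labels in steps of 200 bp; tables and their group order were identified by their deposited names. SNF2H and input libraries were not analysed here.

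Positions were taken 1-based (the table's start plus 1). Nearness was within 1000 bp, clusters had gaps up to 10000 bp, and genome shares were counted over 200 bp bins outside chromosome 1. The counting steps were tested on simulated positions. Members and lists were chosen with earlier results of these data known. Regions named were the largest shifts, positions in more than 1 table, the fullest clusters, the first 20 in chromosome order of the 176 inside segments, and those on an occupancy position of the same pair; other regions and the joined summits were chosen after seeing the values. The values at 1 gene of the adhesion list are not reported here. No genome of this build was used, so no sequence is shown. Scripts ran in Python 3.11.15 with pandas 2.3.3, numpy 2.4.6 and, for intervals and plots, scipy 1.17.1 and matplotlib 3.10.9.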

Additional observations from a re-analysis of the deposited data

How the results depend on the processing

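Of 78 alternative values, 47 stayed within the counting interval or within 1.5 times the count given. The shares of positive shifts stayed within their intervals on autosomes, with 1 member per cluster and for shifts of at least 70 bp, and nearness to segments stayed within 1.5 times for overlap, for 5000 bp and for segments of at least 1000 bp. Other values moved with the definition. Keeping chromosome 1 gave 2686 members in susceptible against control, against 404 without it. In resilient against control and resilient against susceptible it gave 422 and 389, near the 387 and 363 without it. In the order susceptible against control, resilient against control, resilient against susceptible, clustered members numbered 19, 11 and 16 with gaps up to 1000 bp, and 81, 77 and 66 with gaps up to 100000 bp. Within 100000 bp of segments, members numbered 131, 114 and 105 for the susceptible list, 97, 100 and 87 for the resilient list and 106, 92 and 81 for the control list. Members on an occupancy position of the same pair numbered 1, 1 and 1, and within 1000 bp 34, 22 and 29. Positions shared by susceptible against control and resilient against susceptible numbered 0 exactly, 5 within 100 bp and 8 within 200 bp; those shared by resilient against control and resilient against susceptible numbered 2, 6 and 6. Without chromosome Y and the pericentromere, chosen after seeing the data, clustered members numbered 27, 17 and 17, and members near any segment 49, 41 and 32 against 72, 64 and 53. No replicate could be left out. No paired analysis was possible because each group had 1 deposited result per target. Unknown depth, lists without the positions tested and not selected, and 1 result per pair limit every value.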
